A study of Homo sapiens with 2 samples.

Results

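Antisense RNAs are transcribed from the strand opposite to another gene, and those with an approved name carry the symbol of that gene, the sense partner, followed by -AS and a number. Natural antisense RNAs of this kind often start near the promoter of the sense partner, run across 1 or more of its exons, and can pair with its RNA, and some of them raise or lower the level of the partner. Most named antisense RNAs have no described role in cartilage cells. The genes described here were those whose name ends in -AS and digits and that had at least 20 counts in at least 1 of 2 RNA-seq libraries, with VIM-AS1, HAS2-AS1 and P4HA2-AS1 left out. Of the 1231 genes with such a name among the 58220 genes in the tables, 558 had a count and 145 met this rule. The counts therefore chose the members, and their levels and ratios are given as a description. The condition was not tested, except by an edgeR exact test with an assumed variation, given only as a check of the processing.

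RNA-seq was performed on the human chondrocyte line C28/I2, whose cells are immortalized, 72 hours after they were infected with a lentivirus for a control shRNA (shControl, named shvoid in the labels) or for shFGF9-D1, an shRNA that targets FGF9. Both viruses were used at a multiplicity of infection of 10. With 1 library for each condition there was no replicate, and each comparison below is between 2 libraries and not between 2 conditions. The depth was 519192 estimated counts for shControl and 502774 for shFGF9-D1. No count was listed for FGF9 in either library (0 and 0), and the knockdown could therefore not be checked in these data. After scaling, a floor of 3 counts corresponded to 5.71 CPM (counts scaled to library size) for shControl and 6.04 CPM for shFGF9-D1. Of 10 chondrocyte markers, 6 had a count and only PRG4, the cartilage lubricant, reached 10 counts, with 11 in shControl and 12 in shFGF9-D1. COL2A1, COL11A1, SOX5 and COMP were at 0 in both. SOX9 had 2 and 1 counts, ACAN 5 and 0, SOX6 3 and 0, COL9A1 1 and 0, and MATN3 0 and 3. The 10 markers summed to 22 and 16 counts. The 5 fibroblast-like markers summed to 19 counts in shControl and 28 in shFGF9-D1. Of these 5, COL1A1 had 19 and 26 counts, COL3A1 had 0 and 2, and COL1A2, THY1 and PDGFRA were at 0 in both. The 2 endothelial markers summed to 7 and 5, and the 2 immune markers to 1 in each.

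A kit that marks strand was used for the libraries, but which strand the counting used is not stated in the sources at hand. Without strand, reads from an antisense RNA cannot be told apart from those of a gene that shares its exons on the other strand. A count above or below is therefore the count listed for a gene name. Whether it stood for RNA of that strand or of the opposite strand was not tested.

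The sequences of a few members show what sharing an exon with the partner means. Each stretch below is part of the antisense RNA, 5′ to 3′, from the GENCODE release 29 transcripts, and the capitals mark bases that lie opposite a protein-coding exon of the partner. The first 4 come from members with many counts, the next 2 from members with many counts in the partner, and the last 3 from members whose ratio between the libraries was among the largest. The PCBP1-AS1 stretch lies on the minus strand at chr2:70088692-70088811, PXN-AS1 on the plus strand at chr12:120212327-120212446, PRC1-AS1 on the plus strand at chr15:90966582-90966653 and ZNF337-AS1 on the plus strand at chr20:25675035-25675154, all in GRCh38. TMPO-AS1 is shown on the minus strand at chr12:98516027-98516161, ZBTB11-AS1 on the plus strand at chr3:101676590-101676724, PPP1R12A-AS1 on the plus strand at chr12:79934901-79934931, OXCT1-AS1 on the plus strand at chr5:41870291-41870358 and RAB11B-AS1 on the minus strand at chr19:8390417-8390471.
PCBP1-AS1: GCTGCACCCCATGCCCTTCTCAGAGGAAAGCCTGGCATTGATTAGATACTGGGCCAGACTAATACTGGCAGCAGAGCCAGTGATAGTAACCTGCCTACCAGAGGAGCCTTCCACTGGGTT
PXN-AS1: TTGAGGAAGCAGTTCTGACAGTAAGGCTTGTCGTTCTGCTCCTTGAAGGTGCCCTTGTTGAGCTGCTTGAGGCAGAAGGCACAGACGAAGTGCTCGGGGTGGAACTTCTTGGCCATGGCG
PRC1-AS1: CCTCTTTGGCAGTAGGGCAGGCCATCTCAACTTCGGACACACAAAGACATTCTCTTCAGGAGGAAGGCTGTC
ZNF337-AS1: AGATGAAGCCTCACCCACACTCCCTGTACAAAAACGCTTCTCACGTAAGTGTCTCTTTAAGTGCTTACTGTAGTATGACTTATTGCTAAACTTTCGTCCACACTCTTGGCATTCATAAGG
TMPO-AS1: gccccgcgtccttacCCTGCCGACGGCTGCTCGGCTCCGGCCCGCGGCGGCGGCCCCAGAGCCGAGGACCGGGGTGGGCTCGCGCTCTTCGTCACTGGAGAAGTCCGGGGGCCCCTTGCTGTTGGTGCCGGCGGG
ZBTB11-AS1: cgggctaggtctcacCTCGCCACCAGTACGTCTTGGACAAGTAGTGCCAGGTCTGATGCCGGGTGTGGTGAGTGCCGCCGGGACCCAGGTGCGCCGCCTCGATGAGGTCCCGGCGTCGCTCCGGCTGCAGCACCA
PPP1R12A-AS1: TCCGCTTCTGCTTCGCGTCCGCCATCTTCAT
OXCT1-AS1: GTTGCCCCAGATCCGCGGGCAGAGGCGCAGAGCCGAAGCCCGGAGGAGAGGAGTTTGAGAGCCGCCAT
RAB11B-AS1: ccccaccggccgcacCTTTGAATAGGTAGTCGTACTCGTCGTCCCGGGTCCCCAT
The last 3 stretches end in CAT, the reverse complement of the start codon ATG, because the antisense RNA lies opposite the start codon of its partner.

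All 145 members were matched by identifier to GENCODE release 29 (GRCh38), which annotates 114 of them as antisense, 19 as processed transcripts, 6 as lincRNA and the rest in other classes. The names of 5 members, HOXA-AS2, HOXA-AS3, HOXB-AS1, HOXB-AS3 and HOXB-AS4, refer to a gene cluster and gave no single partner. The other 140 members had a partner in the tables, 138 different genes, all protein-coding. Of these 140, 132 (94.3%) shared exon bases with the partner on the opposite strand. Another 6 overlapped the partner on the opposite strand with no exon base in common: CCDC144NL-AS1, ZFHX2-AS1, RAET1E-AS1, WNT5A-AS1, SP2-AS1 and PSMA3-AS1. IL10RB-AS1 and EIF3J-AS1 did not overlap the partner at all. Among the 1059 other named antisense genes with a partner, all under 20 counts, 528 (49.9%) shared exon bases with it, 394 (37.2%) overlapped it on the opposite strand without a shared exon, 131 (12.4%) did not overlap it and 6 (0.567%) lay on the same strand. Members also had more exon sequence in all, with a median of 3020 merged exon bases for each gene against 1312. Where exon bases were shared, members shared more of them, with a median of 515 bases against 193.5. Members were chosen on their counts, and the strand used in counting is not stated. The part of that strand and of total exon length in the difference of position was not tested. With any gene on the opposite strand in place of the named partner, 142 members (97.9%) shared exon bases, and the other 3 were HOXB-AS4, WNT5A-AS1 and SP2-AS1. For 35 members the largest shared stretch belonged to another gene than the partner. The share whose start lay within 1 kb of the partner's start was 21.4% (30 of 140) among members and 24.4% (258 of 1059) among the other named antisense genes.

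**Figure D1:**
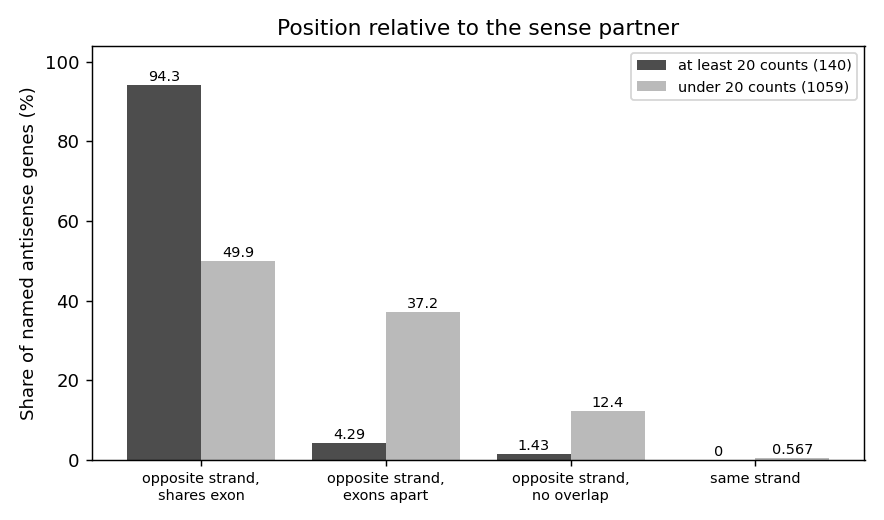
Position of named antisense RNAs relative to the sense partner in GENCODE release 29, as a percentage of genes (y axis) for 140 members with at least 20 counts and 1059 other named antisense genes. Members shared exon bases with the partner in 94.3% of cases and the other genes in 49.9%. Members were chosen on counts whose strand is not stated, and the part of this in the difference was not tested.

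The 145 members held 22473 counts in shControl and 21445 in shFGF9-D1. These were 4.33% (exact binomial 95% interval 4.27 to 4.38) and 4.27% (4.21 to 4.32) of all counts. Intervals here and below cover counting error only. The median member had 61 counts in shControl and 52 in shFGF9-D1, and the range was 8 to 2354 and 7 to 2488. At least 1000 counts were reached by 5 members, at least 100 by 49 and at least 50 by 88, while 57 had 20 to 49 counts in the higher library. The 15 members with the most counts held 55.4% of the members' counts in shControl and 56.8% in shFGF9-D1.

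PCBP1-AS1 had the most counts of all members, with 2354 for shControl and 2488 for shFGF9-D1. It is encoded on chr2:69962263-70103220 opposite PCBP1, a broadly expressed poly(C)-binding protein, which had 7 and 10 counts. On the FPKM scale, which divides by transcript length, PCBP1-AS1 stood at 6446 and 6612 and PCBP1 at 8.31 and 12.5. PCOLCE-AS1 had 1208 and 1473 counts, and its partner PCOLCE, which enhances the processing of fibrillar procollagens, had 11 and 4. PCOLCE-AS1 shared 585 exon bases with PCOLCE and 895 with FBXO24, an F-box gene with 2 counts in each library. PXN-AS1 had 1294 and 1277 counts against 41 and 35 for PXN, which encodes the focal adhesion protein paxillin. CERS6-AS1 had 1224 and 925 counts, while CERS6, a ceramide synthase, had 5 in each library. In PRC1-AS1, with 898 and 941 counts, the partner was PRC1, a microtubule-bundling protein of dividing cells, with 32 and 22. ZNF337-AS1 had 974 and 752 counts and the zinc finger gene ZNF337 53 and 51. SH3BP5-AS1 had 842 and 787, beside a better counted partner, since SH3BP5, a regulator of Rab11 and of BTK, had 276 and 212. Each of these 7 members exceeded its partner in both libraries.

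HOXA-AS3, a transcript of the HOXA cluster at chr7:27129977-27155928, had 1271 counts in shControl and 1366 in shFGF9-D1. Its largest shared exon stretch, 1507 bases, was with the homeobox gene HOXA7, which had 35 and 24 counts. The other 4 HOX members were counted less often. HOXA-AS2 had 148 and 99 counts, HOXB-AS3 70 in each, HOXB-AS4 36 and 52, and HOXB-AS1 21 and 26. HOXB3, which shared 374 exon bases with HOXB-AS1, had 128 and 89 counts, more than this member in both libraries.

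The remaining 7 of the 15 members with the most counts had between 191 and 435. UCKL1-AS1, opposite a uridine kinase-like gene, had 406 and 426 counts, and UCKL1 had 6 and 4. KDM4A-AS1 had 274 and 380, and KDM4A, a histone lysine demethylase, had 4 and 0. STARD7-AS1 had 278 and 354, and the lipid transfer gene STARD7 had 43 and 55. EAF1-AS1 had 392 and 239 against 3 in each library for EAF1, an elongation factor partner. IL10RB-AS1 had 435 and 191, and IL10RB, a chain of the interleukin-10 receptor, had 0 in both. SLC12A5-AS1 had 320 and 294, SLC12A5, a potassium-chloride cotransporter, 27 and 23, and MMP9, a matrix metalloproteinase that shared more of its exons, 12 and 23. MAP3K14-AS1 had 286 and 297 counts, and MAP3K14, the kinase of non-canonical NF-kappa-B signalling, had 3 and 1.

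**Figure D2:**
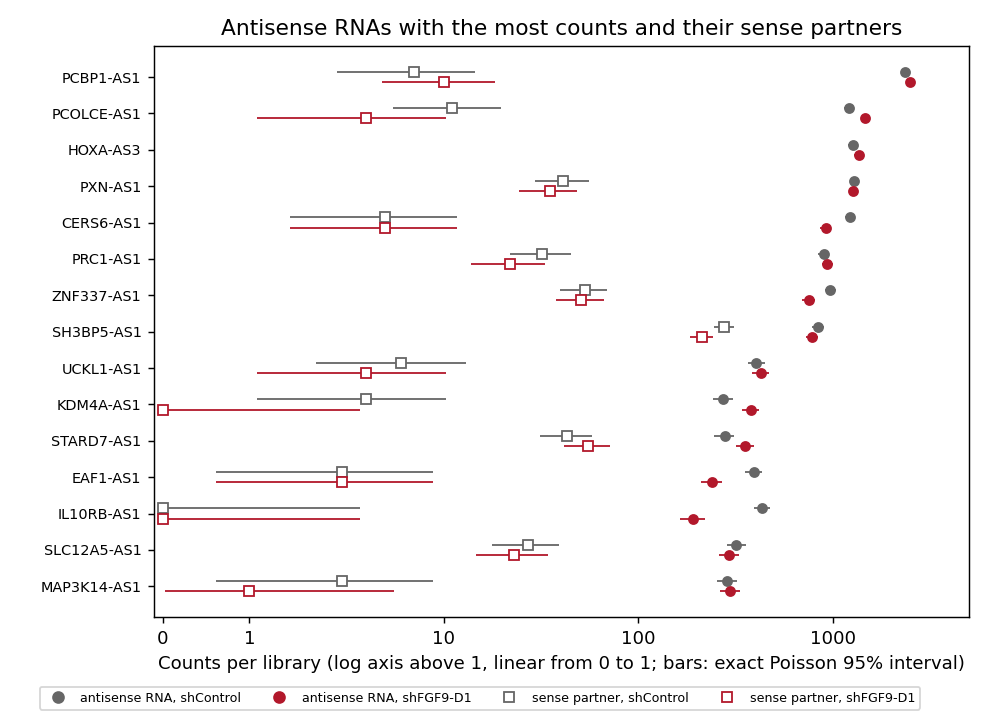
Counts in shControl (grey) and shFGF9-D1 (red) for the 15 members with the most counts (filled circles) and their sense partners (open squares), with exact Poisson 95% intervals, on a log axis that is linear from 0 to 1. All 14 members with a partner exceeded it in both libraries; HOXA-AS3 has no single partner.

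Over all 140 pairs, the member had more counts than the partner in 119 pairs in shControl and in 121 in shFGF9-D1, fewer in 18 and 19, and the same number in 3 and 0. Per length, the member was above the partner in 128 pairs in shControl and 127 in shFGF9-D1 by FPKM. By counts per kb of merged exon these numbers were 127 and 125. The rule chose members for their counts and not the partners, so more counts in members than in partners were partly given by the choice. Over all 541 pairs with a count in the antisense gene, it exceeded the partner in 284 in shControl and 280 in shFGF9-D1. The median partner had 5.5 counts in shControl and 5 in shFGF9-D1. In 15 pairs the partner was at 0 in shControl, in 23 it was at 0 in shFGF9-D1, and in 9 at 0 in both. Partners with at most 3 counts in each library numbered 48, and 45 partners reached 20 counts. RAD21, a subunit of the cohesin ring, had 2 counts in each library, and PPP1R12A, the targeting subunit of myosin phosphatase, had 1 and 0, although both are known as broadly expressed genes.

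The 8 members whose partner had the most counts stood mostly on the other side. They were chosen for the counts of the partner, so fewer counts in the member were partly given by the choice. TMPO, which encodes lamina-associated polypeptide 2, had 585 counts in shControl and 451 in shFGF9-D1, and TMPO-AS1 had 212 and 99. PTOV1 had 279 and 333, its antisense RNA PTOV1-AS1 184 and 186, and PTOV1-AS2 24 and 28. Both PTOV1 antisense RNAs share this partner, so the pairs are not independent. ARRDC1, an arrestin-domain adaptor of ubiquitin ligases, had 155 and 268 counts against 23 and 17 for ARRDC1-AS1. CIRBP, the cold-inducible RNA-binding protein, had 155 and 224 against 70 and 35 for CIRBP-AS1, although they share 4 exon bases only. GABPB1, the beta subunit of GA-binding protein, had 151 and 208 against 38 and 22 for GABPB1-AS1. KIAA1614 had 163 and 147, and KIAA1614-AS1, with most of its exon bases opposite KIAA1614 (84.7%), had 33 in each library. Except for SH3BP5-AS1, each of these 8 members had fewer counts than its partner in both libraries.

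To compare the libraries, counts were scaled by TMM and the ratio between the libraries, shFGF9-D1 over shControl, received an exact 95% interval. A member was called when its ratio was at least 2-fold and the interval excluded equal levels. By this rule 4 members were higher in shFGF9-D1 (2.76%), 11 were lower (7.59%) and 130 were not called. Among all 2539 genes with at least 20 counts, 4.69% were higher, 5.12% lower and 9.81% either, and the 10.3% of members called was near that background. Among the 4000 genes with at least 10 counts the shares were 4.7%, 5.38% and 10.1%, and among the 1385 genes with at least 50 counts they were 2.74%, 3.25% and 5.99%. The count of calls is therefore not a result about the members. Ratios were above 1 in 69 members and below 1 in 76, with a median log2 ratio of -0.02, quartiles of -0.35 and 0.30, and a range from -1.81 to 1.78. The median over all genes with at least 20 counts was 0.08. Called with under 20 counts in 1 library were MBNL1-AS1, PSMA3-AS1, SP2-AS1, PAXBP1-AS1, OXCT1-AS1, PPP1R12A-AS1, RAB11B-AS1, FOXD1-AS1 and MMP24-AS1. These members, which include both ends of the range, met the count rule only through the library where they were higher. That choice tilts their ratios away from 1, and their intervals do not cover it.

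**Figure D3:**
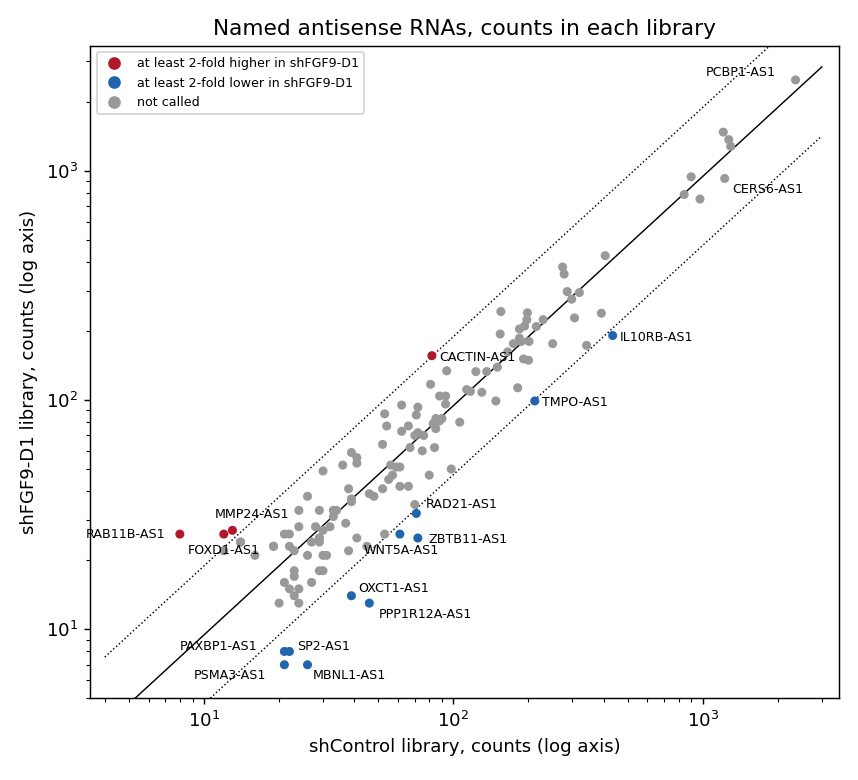
Counts of the 145 members in the shControl library (x axis) and the shFGF9-D1 library (y axis), both on log axes, with equal scaled levels as a solid line and 2-fold as dotted lines. The 4 members called higher (red) and the 11 called lower (blue) lie outside the dotted lines, most of them under 100 counts.

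Of the members called lower, IL10RB-AS1 had by far the most counts. It had 435 counts in shControl and 191 in shFGF9-D1, which is 2.15-fold lower (log2 ratio -1.11, interval -1.36 to -0.86). IL10RB-AS1 lies on chr21:33263873-33266260 and starts 98 bases from the start of IL10RB without overlapping it. Most of its exon sequence (1803 bases) lies opposite the interferon receptor gene IFNAR2, which had 1 and 2 counts. TMPO-AS1, at chr12:98512973-98516422, had 212 and 99 counts (log2 ratio -1.02, interval -1.38 to -0.67). Its partner TMPO was also lower, but less so, with a log2 ratio of -0.29. From FPKM, as log2(FPKM + 1), the difference of TMPO-AS1 was -0.91, under 2-fold.

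Further members called lower had between 39 and 72 counts in shControl. ZBTB11-AS1 had 72 counts in shControl and 25 in shFGF9-D1, 2.72-fold lower (log2 ratio -1.44, interval -2.16 to -0.77), beside 91 and 92 counts for the zinc finger gene ZBTB11. RAD21-AS1 had 71 and 32 (log2 ratio -1.07, interval -1.72 to -0.45). WNT5A-AS1, on chr3:55487699-55488308 opposite the gene of the Wnt ligand WNT5A, had 61 and 26 (log2 ratio -1.15, interval -1.87 to -0.46), and WNT5A itself had 1 and 2. PPP1R12A-AS1 had 46 and 13 (log2 ratio -1.74, interval -2.75 to -0.83). OXCT1-AS1 had 39 and 14 (log2 ratio -1.40, interval -2.39 to -0.48), and OXCT1, a mitochondrial enzyme that uses ketone bodies, had 0 and 3.

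The last 4 members called lower had 21 to 26 counts in shControl and 7 or 8 in shFGF9-D1. MBNL1-AS1 had 26 and 7 (log2 ratio -1.81, interval -3.26 to -0.57), the lowest ratio of all members, while MBNL1, a splicing regulator, had 95 and 90. PSMA3-AS1 had 21 and 7 (log2 ratio -1.50, interval -2.98 to -0.22), and PSMA3, a proteasome subunit, had 158 and 110. SP2-AS1 had 22 and 8 (log2 ratio -1.38, interval -2.75 to -0.16) beside 7 and 0 for the transcription factor SP2. PAXBP1-AS1 had 21 and 8 (log2 ratio -1.31, interval -2.69 to -0.08), and PAXBP1, named for its binding of PAX proteins, had 2 and 7.

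Of the 4 members called higher, only CACTIN-AS1 had more than 30 counts in a library. CACTIN-AS1, at chr19:3607247-3613930, had 82 counts in shControl and 156 in shFGF9-D1 (log2 ratio 1.01, interval 0.62 to 1.41). Its partner CACTIN, a splicing-associated protein, had 71 and 105 (log2 ratio 0.65). CACTIN-AS1 stood at the 2-fold limit, and its call was lost with total counts (log2 ratio 0.97) and with DESeq2 size factors (0.93). RAB11B-AS1 had 8 and 26 counts, 3.44-fold higher (log2 ratio 1.78, interval 0.60 to 3.14), and RAB11B, a GTPase of recycling endosomes, had 8 and 10. FOXD1-AS1 had 12 and 26 (log2 ratio 1.20, interval 0.16 to 2.32), and the forkhead factor FOXD1 had 2 and 4. MMP24-AS1 had 13 and 27 (log2 ratio 1.14, interval 0.13 to 2.21), and MMP24, a membrane-type metalloproteinase, had 87 and 126. GENCODE release 29 annotates MMP24-AS1 as protein-coding, so its name and type differ. From FPKM, as differences of log2(FPKM + 1), MMP24-AS1 stood at 0.50 and FOXD1-AS1 at 0.97, both under 2-fold.

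**Figure D4:**
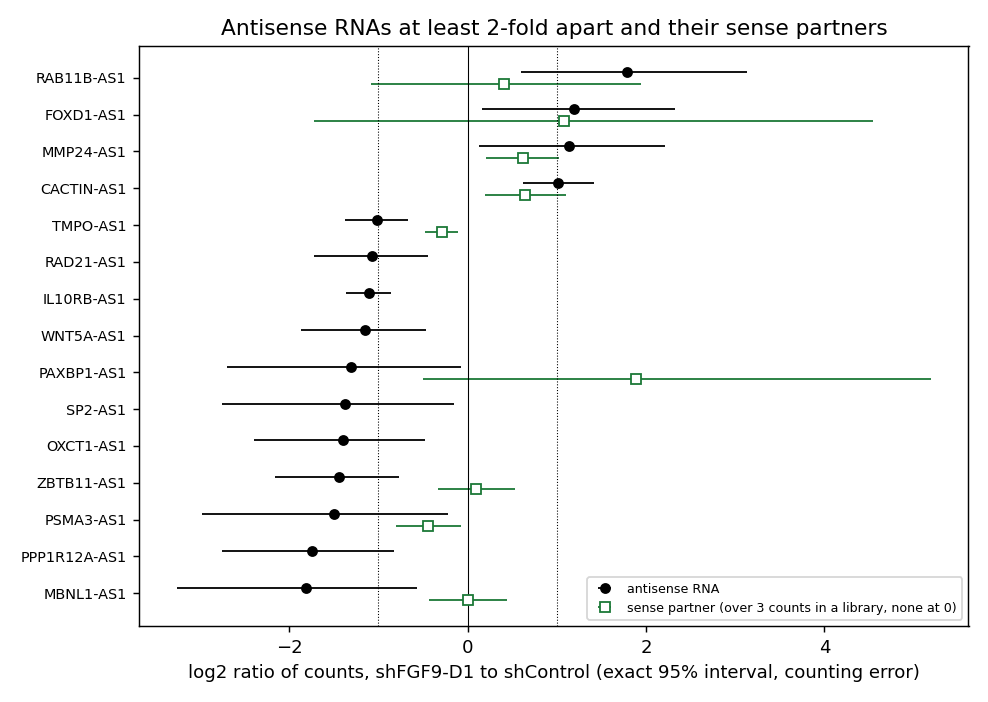
Log2 ratio of shFGF9-D1 to shControl, scaled by TMM, with exact 95% intervals for the 15 called members and, where the partner had over 3 counts in a library and no count of 0, for the sense partner. Intervals are widest for the members with under 30 counts in both libraries, while that of IL10RB-AS1 runs from -1.36 to -0.86.

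For 30 members more, the interval excluded equal levels but the ratio was under 2-fold, which brings the members with such an interval to 20 higher and 25 lower. The share of all genes with such an interval was not counted, so these numbers are not a result about the members. Among the 15 members with the most counts, PCBP1-AS1 (log2 ratio 0.16, interval 0.08 to 0.24), PCOLCE-AS1 (0.37, 0.26 to 0.48), HOXA-AS3 (0.19, 0.07 to 0.30) and PRC1-AS1 (0.15, 0.02 to 0.28) were slightly higher in shFGF9-D1 by counts. As differences of log2(FPKM + 1), PCBP1-AS1 was at 0.04 and PRC1-AS1 at 0.01. KDM4A-AS1 (0.55, 0.33 to 0.78) and STARD7-AS1 (0.43, 0.20 to 0.66) were higher too. CERS6-AS1 (-0.32, -0.45 to -0.20), ZNF337-AS1 (-0.29, -0.43 to -0.15) and EAF1-AS1 (-0.63, -0.87 to -0.40) were lower. The intervals of PXN-AS1, SH3BP5-AS1, UCKL1-AS1, SLC12A5-AS1 and MAP3K14-AS1 included equal levels. SMARCA5-AS1, with 342 and 173 counts (log2 ratio -0.90), MYCBP2-AS1, with 98 and 50 (-0.89), and CHMP1B-AS1, with 155 and 243 (0.73), came closest to 2-fold among members with at least 90 counts. The choice of these 3 was made with their values known.

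The called members were also set beside their position, as a description and without a test. Among all genes with at least 20 counts, 5.12% were called lower and 4.69% higher. These shares were not split by position. Of the 30 members that start within 1 kb of the partner, 5 were called lower (IL10RB-AS1, TMPO-AS1, RAD21-AS1, PPP1R12A-AS1 and OXCT1-AS1) and RAB11B-AS1 was called higher. Of the 110 that start farther away, 6 were called lower and 3 higher. The median log2 ratio was -0.03 in both sets. By overlap, 7 of the members called lower shared exon bases with the partner, 3 (WNT5A-AS1, SP2-AS1 and PSMA3-AS1) overlapped it without a shared exon, and IL10RB-AS1 did not overlap it. All 4 members called higher shared exon bases with the partner.

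Because depth cancels within a library, the member's share of the counts of a pair could be compared without scaling. In 45 pairs both genes reached 20 counts in a library. The interval of the odds ratio excluded equal shares in 9 of them, 7 with a lower and 2 with a higher share of the antisense RNA in shFGF9-D1. Among all 498 opposite-strand gene pairs that share exon bases with both genes at 20 counts, such an interval was seen in 28.7%, so the 9 of 45 members were not above that background. CIRBP-AS1 took 31.1% of its pair's counts in shControl and 13.5% in shFGF9-D1 (odds ratio 0.35, interval 0.21 to 0.56), with 70 and 35 counts against 155 and 224 for CIRBP. ZBTB11-AS1 took 44.2% and 21.4% (odds ratio 0.34, interval 0.19 to 0.61), with ZBTB11 at nearly the same count in both libraries. TMPO-AS1 took 26.6% and 18% (odds ratio 0.61, interval 0.46 to 0.80). The shares in shControl and shFGF9-D1 were 20.1% and 9.57% for GABPB1-AS1, 12.9% and 5.96% for ARRDC1-AS1, and 21.5% and 7.22% for MBNL1-AS1. IPO9-AS1, opposite an importin, took 95.3% and 84.3% (odds ratio 0.27, interval 0.10 to 0.64), with 181 and 113 counts against 9 and 21 for IPO9. The share of VASH1-AS1 was 67.3% in shControl and 76.4% in shFGF9-D1 (odds ratio 1.57, interval 1.08 to 2.28), and that of ZSWIM8-AS1 was 84.2% and 91.1% (odds ratio 1.91, interval 1.06 to 3.52). In 3 of these 9 pairs the member was itself called lower (TMPO-AS1, ZBTB11-AS1 and MBNL1-AS1), beside 10.3% of all members called. The share and the call use the same member counts, so this overlap is partly given by the choice. Over the 45 pairs, the log2 ratios of member and partner had the same sign in 22, with a Pearson r of 0.19 and a Spearman rho of 0.21 across pairs that share both libraries.

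**Figure D5:**
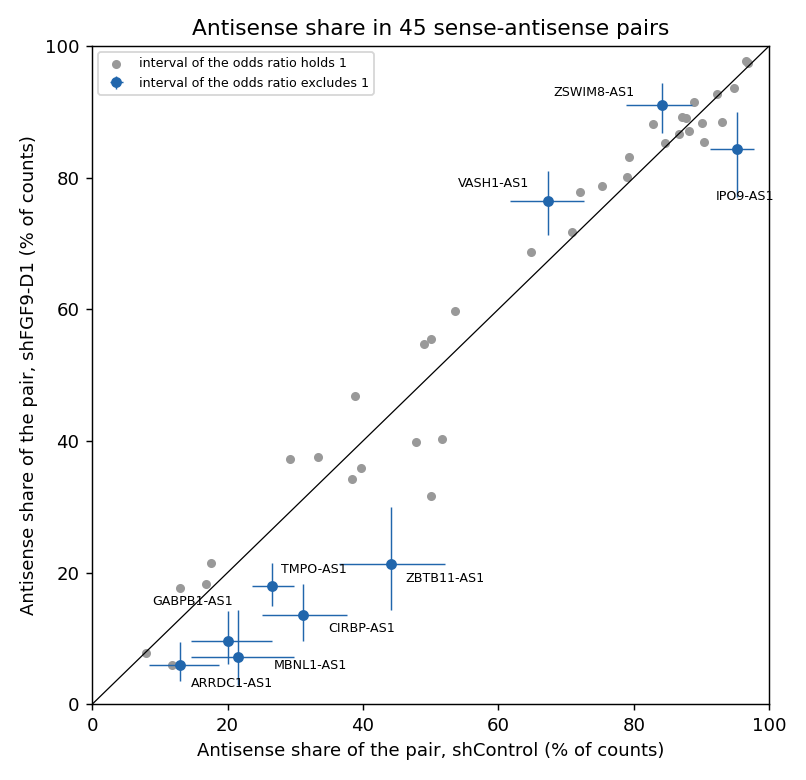
Share of the antisense RNA in the summed counts of each of 45 pairs (percent) in shControl (x axis) and in shFGF9-D1 (y axis), with equal shares as a line. The 9 pairs whose odds ratio interval excluded equal shares are blue, with exact binomial 95% intervals, and lie below the line in 7 pairs, such as CIRBP-AS1 with 31.1% and 13.5%, and above it for VASH1-AS1 and ZSWIM8-AS1.

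By the same 2-fold rule 5 partners were called, of the 62 pairs whose partner reached 10 counts, beside 10.1% of all genes with at least 10 counts. The number of partners called was not above that background. IPO9 had 9 counts in shControl and 21 in shFGF9-D1, SLC25A25, a mitochondrial carrier, 10 and 23, and KCTD21, an adaptor of a ubiquitin ligase, 6 and 18. Lower were ZFHX2, a zinc finger homeobox gene, with 12 and 2, and NOP14, a factor of small ribosomal subunit assembly, with 12 and 3. In none of these 5 pairs was the member called. Among all members 10.3% were called, so none of 5 is not a result about the pairs. The counts were 181 and 113 for IPO9-AS1, 94 and 134 for SLC25A25-AS1 and 41 and 53 for KCTD21-AS1. ZFHX2-AS1 had 54 and 77 and NOP14-AS1 41 and 56.

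Grouped by the known role of the partner, the members fell into 8 roles and a rest, and each group held at most 3 calls. Among all genes with at least 20 counts 9.81% were called, and differences between the groups were not tested. Transcription and chromatin was the largest group, with 37 members, of which FOXD1-AS1 was called higher, ZBTB11-AS1 and SP2-AS1 lower, and the median log2 ratio was -0.02. It includes NKX2-2-AS1, opposite a homeobox gene of the nervous system, with 298 and 275 counts against 3 and 2 for NKX2-2. Of 11 members opposite genes of RNA processing and translation, CACTIN-AS1 was called higher and MBNL1-AS1 lower, with a median of -0.18. The 17 members opposite cytoskeleton, adhesion and matrix genes had 1 call in each direction, MMP24-AS1 and PPP1R12A-AS1, and a median of -0.04. The 7 opposite genes of cell division and genome upkeep had 2 lower calls, TMPO-AS1 and RAD21-AS1, and a median of -0.20, and OIP5-AS1, a long non-coding RNA known to bind microRNAs and HuR, had 113 and 111 counts. The 18 opposite genes of membrane transport and trafficking had RAB11B-AS1 as their single call. The 13 opposite ubiquitin and proteolysis genes had PSMA3-AS1 called lower and a median of 0.19. Of the 16 members opposite signalling genes, IL10RB-AS1 and WNT5A-AS1 were lower, and the median was -0.03. GNAS-AS1, opposite the imprinted gene of the stimulatory G protein alpha subunit, had 62 and 95 counts there (log2 ratio 0.70, interval 0.22 to 1.18). The 11 metabolic pairs had OXCT1-AS1 lower and a median of 0.13, and PAXBP1-AS1 was the only call among the 15 others.

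Antisense RNA that pairs with its partner forms double-stranded RNA, which cells cut with DICER1, edit with ADAR and sense through DDX58 (RIG-I), IFIH1 and MAVS. Of 29 genes of this kind, 24 had a count, 8 reached 10 counts and 0 were called. Among all genes with at least 10 counts 10.1% were called, so 0 of 8 is not a result about this list. The counts of the 29 genes summed to 158 in shControl and 151 in shFGF9-D1. The median log2 ratio of the 8 was 0.01, beside 0.04 over all genes with at least 10 counts. DDX58 had 21 and 10 counts (log2 ratio -0.99, interval -2.24 to 0.16), and the adaptor MAVS had 29 in each library. The RISC loading partners TARBP2 and PRKRA had 14 and 16 and 11 and 12 counts, and DICER1 itself had 3 and 0. IFIH1, TLR3 and OAS1 were at 0 in both libraries. With so few counts, differences in most of these genes could not be detected, and why the counts were low was not tested.

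Of the 145 members, 102 had a promoter window of 250 bases before to 50 after a start in RefSeq (GRCh38.p14), 121 windows in all. These windows were rich in G and C (median 61.3%) and held a median of 19 CG pairs, against 58.7% and 14 over all 35116 windows of 27305 genes. The windows of the partners held 64.3% and 24 CG pairs. In the 31 windows of the 23 members that start within 1 kb of the partner, the median was 64.7% and 23 CG pairs. The TATA box letters TATAAA, on either strand, were in 10.7% of members' windows, in 3.23% of windows of members starting within 1 kb, and in 11.5% of all windows. The letters TGACNNNGC, the core of the antioxidant response element bound by NRF2, were in 20.7% of members' windows and 13.3% of all windows. They were in 32.3% of windows of members starting within 1 kb and in 14.4% of partners' windows. Some genes have more than 1 window, so the windows are not independent, and these differences were not tested. The windows of ZBTB11-AS1 (plus strand, chr3:101676180-101676479), OXCT1-AS1 (plus strand, chr5:41869780-41870079) and RAB11B-AS1 (minus strand, chr19:8390642-8390941) are shown as examples of called members, with CG pairs in capitals. They hold 27, 20 and 23 CG pairs and neither of the 2 motifs. Of other called members, the window of PSMA3-AS1 holds 1 TGACNNNGC, and those of WNT5A-AS1, PPP1R12A-AS1, TMPO-AS1 and PAXBP1-AS1 hold neither motif.
ZBTB11-AS1: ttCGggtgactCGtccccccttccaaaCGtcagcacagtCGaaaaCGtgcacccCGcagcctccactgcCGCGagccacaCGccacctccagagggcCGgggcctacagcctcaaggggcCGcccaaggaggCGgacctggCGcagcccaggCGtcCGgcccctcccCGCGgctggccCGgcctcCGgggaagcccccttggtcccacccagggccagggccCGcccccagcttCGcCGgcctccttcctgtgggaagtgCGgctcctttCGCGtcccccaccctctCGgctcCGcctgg
OXCT1-AS1: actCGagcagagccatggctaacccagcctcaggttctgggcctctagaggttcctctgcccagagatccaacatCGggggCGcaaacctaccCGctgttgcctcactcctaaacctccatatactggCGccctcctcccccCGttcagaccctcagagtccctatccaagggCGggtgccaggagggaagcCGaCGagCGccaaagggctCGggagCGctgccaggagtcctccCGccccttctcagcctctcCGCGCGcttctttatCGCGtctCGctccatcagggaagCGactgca
RAB11B-AS1: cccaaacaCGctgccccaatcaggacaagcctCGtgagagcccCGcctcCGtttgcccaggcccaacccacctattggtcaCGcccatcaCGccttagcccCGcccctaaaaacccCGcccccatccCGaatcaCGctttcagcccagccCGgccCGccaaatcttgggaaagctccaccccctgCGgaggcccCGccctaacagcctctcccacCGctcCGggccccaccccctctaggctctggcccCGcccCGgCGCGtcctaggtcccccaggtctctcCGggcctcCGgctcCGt
A match of letters is a description and not a binding site.

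The rule of 20 counts passes through a continuous range of low values. Just inside it were ACTA2-AS1, with 16 counts in shControl and 21 in shFGF9-D1, ADORA2A-AS1, with 21 and 16, and ACBD3-AS1, with 20 and 13, besides PAXBP1-AS1 and PSMA3-AS1. Just outside were 9 named antisense genes with 18 or 19 counts in the higher library. NUTM2B-AS1, SNRK-AS1, USP3-AS1, FAM13A-AS1 and NFYC-AS1 had 15 to 19 counts in each library. NCK1-AS1 had 18 and 5, ZNF667-AS1 19 and 5, ZNF32-AS2 19 and 9, and NDUFB2-AS1 18 and 11.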

How the data were processed

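C28/I2 cells with shControl or shFGF9-D1 were sequenced as 1 RNA-seq library each. The submitters' processing notes name Cufflinks 2.2.1 and Cuffdiff, HISAT2 and bcl2fastq 2.1.7 as tools and GRCh38.p14 as the build. Other versions, the annotation release, trimming and the strand used in counting are not stated in these sources. The deposited tables hold estimated counts for each gene, without scaling between libraries, and FPKM, which the authors scaled by transcript length and library size. Estimated counts were rounded to whole numbers.

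Counts were scaled by TMM (edgeR 4.0.16, R 4.3.3; factors 1.01 for shControl and 0.988 for shFGF9-D1). Each ratio of shFGF9-D1 to shControl had an exact Clopper-Pearson 95% interval (scipy 1.17.1), fitted over the whole table. A gene was called when it had 10 or more counts in 1 library, differed 2-fold or more and had an interval excluding equal levels. No fold was given where both counts were at or under the floor of 3 counts. Pair shares were compared by the exact conditional odds ratio. Positions came from GENCODE release 29, and 144 of the 145 members lay inside their deposited locus. Coordinates are 1-based on GRCh38, whose primary assembly the authors' build shares. Promoter windows came from RefSeq (GRCh38.p14).

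The members and lists were chosen with earlier results of these data known, and partners were put into role groups by hand from textbook roles. The genes named are the 15 members with the most counts, every called member, the 8 whose partner has the most counts, and the genes around the count limit; any other gene was picked with its values known. The rule was tested on simulated Poisson counts for genes with at least 20 counts, scaled by total counts and not by TMM. It called 46% of 50 genes at 2-fold, 100% of 100 at 4-fold, 100% of 50 at 8-fold and 0.77% of 2339 unchanged genes. The interval held the true fold in 97% of 200. The simulation held counting error only, as the interval does, so it gives no error rate for the calls in these libraries. The spread from culture to culture remained unknown. The alternatives tried were size factors from DESeq2 1.42.0, total counts, other minimums on counts, the interval alone, an edgeR exact test with an assumed variation, and differences of log2(FPKM + 1) and log2(FPKM + 0.1). Counts per kb of exon and TMM on nuclear genes alone were added after seeing the data. Columns of the authors' own comparison were not used.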

Additional observations from a re-analysis of the deposited data

How the results depend on the processing

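No paired analysis was possible because each condition had 1 library, and for the same reason no replicate could be left out. Counting error and the unknown strand of the counting limit what these libraries show. Shares over all genes were counted for the 2-fold rule with TMM only. The numbers of calls under other settings therefore describe the members alone. The 4 higher and 11 lower members became 20 and 25 with the interval alone, 1 and 5 among members with at least 50 counts, and 7 and 22 among all named antisense RNAs with a count. With the edgeR exact test and an assumed coefficient of variation of 0.1 they became 1 and 4 at a Benjamini-Hochberg adjusted p under 0.05 (CACTIN-AS1 higher, IL10RB-AS1, TMPO-AS1, ZBTB11-AS1 and PPP1R12A-AS1 lower). With a coefficient of 0.4 the edgeR test called 0 and 0, and 0 members had an unadjusted p under 0.05. Total counts gave 3 and 11 and DESeq2 size factors 3 and 13, adding CIRBP-AS1 and SMIM15-AS1. The median log2 ratio of -0.02 became -0.11 with DESeq2 size factors and -0.11 with no minimum on counts, and 0.03 among members with at least 50 counts. Members above their partner were 77 of 84 pairs in shControl and 78 in shFGF9-D1 at 50 counts, and 284 and 280 of 541 pairs with no minimum. On the log2(FPKM + 1) scale the differences of MMP24-AS1 (0.50), FOXD1-AS1 (0.97) and TMPO-AS1 (-0.91) were under 2-fold, as with log2(FPKM + 0.1) (0.52, 0.97 and -0.91). PCBP1-AS1 moved from 0.16 to 0.04 and PRC1-AS1 from 0.15 to 0.01 on both FPKM scales. The cause was not tested. No called member changed sign on either FPKM scale. Total counts and DESeq2 size factors shift every ratio by the same small amount and could not change the sign of a called member. The DESeq2 size factor was 1 for shControl and 1 for shFGF9-D1, which leaves the counts unscaled.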
